A study of Mus musculus with 6 samples.

Results

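Collagens and structural matrix proteins were examined in cultures of myeloma-associated macrophages treated with an antibody against CSF1R, the receptor that M-CSF acts through. The genes were taken by symbol: every collagen chain gene (Col, digits, a, digits), plus Fn1, Sparc, Postn, Lox, Loxl1, Loxl2, Fbn1, Eln, Dcn, Lum and Bgn. Of 22180 genes measured, 53 met this rule, 44 of them collagens and 9 of them other matrix genes. Fbn1, Loxl2 and Col21a1 are not analysed here. The 2 probe sets that carry the symbol Loxl2 also carry another. Macrophages were grown from bone marrow of 3 C57BL/KaLwRij mice with M-CSF for 7 days and kept overnight with 5TGM1-luc, a murine myeloma line that carries luciferase. The cultures then received 0.5 nM of an anti-mouse CSF1R antibody or control IgG for 3 days and were washed 4 times before RNA was taken. The labels give no separate dose for the IgG. There were 3 arrays in each group, and all 6 shared the strain, the M-CSF culture and the contact with myeloma cells. Which replicate came from which mouse is unstated, so p-values reflect only how these samples vary, and that variation may be technical. Beyond these washes, the labels describe no step that separates macrophages from myeloma cells.

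Collagens are built from chains wound into a helix and are secreted mainly by fibroblasts, osteoblasts and smooth muscle cells, with fibrillar collagens giving tissues their tensile strength and collagen IV forming basement membranes. Fibronectin, SPARC and periostin bind collagen or cells, lysyl oxidases crosslink collagen and elastin, and small leucine-rich proteoglycans such as biglycan and decorin coat fibrils. Macrophages are known for making fibronectin and collagen VI and VIII, for taking up and degrading collagen, and for acting on fibroblasts, but the fibrillar collagens are not among their typical products.

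After the CSF1R antibody, 12 of the 53 matrix genes were lower and 1 was higher (limma, Benjamini-Hochberg adjusted p below 0.05 over all genes), and 40 were not called. Over all genes tested, 16.0% were lower, 12.5% were higher and 28.5% were called in either direction. Of the matrix genes, 22.6% were lower and 1.89% higher. With only 53 genes, the 22.6% is near the 16.0% and is not read as an excess of lower genes. The median log2 difference (antibody minus IgG) was −0.04 over the 53 genes and −0.02 over all genes. The difference was negative in 38 of the 53 genes and in 12253 of all 22180. Among the 9 matrix genes that are not collagens, 5 were lower, with a median of −0.49, while 7 of 44 collagens, or 15.9%, were lower, with a median of −0.04. The 3 antibody arrays lay wholly below the 3 IgG arrays for 14 of the 53 genes and wholly above for 1, against 22.7% and 16.6% of all genes. With cyclic loess scaling of the arrays, 3411 of all genes were higher and 2346 lower, in place of 2766 and 3548 without it, and 10 matrix genes were lower and 1 higher.

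Some of the matrix genes gave little signal. A guide to background was the 95th percentile, 4.92 on the log2 scale, of the means of 1390 olfactory and vomeronasal receptor genes, which macrophages are not thought to use. The antibody group, the IgG group or both exceeded it for 37 of the 53 genes, and 16 lay below it in both. Over all genes tested, 9070 of 22180 lay below it in both groups, so low signal is not particular to matrix genes. The 12 lower genes all lay above the guide in the IgG group, and the 1 higher gene, Dcn, lay below it in both groups.

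**Figure D1:**
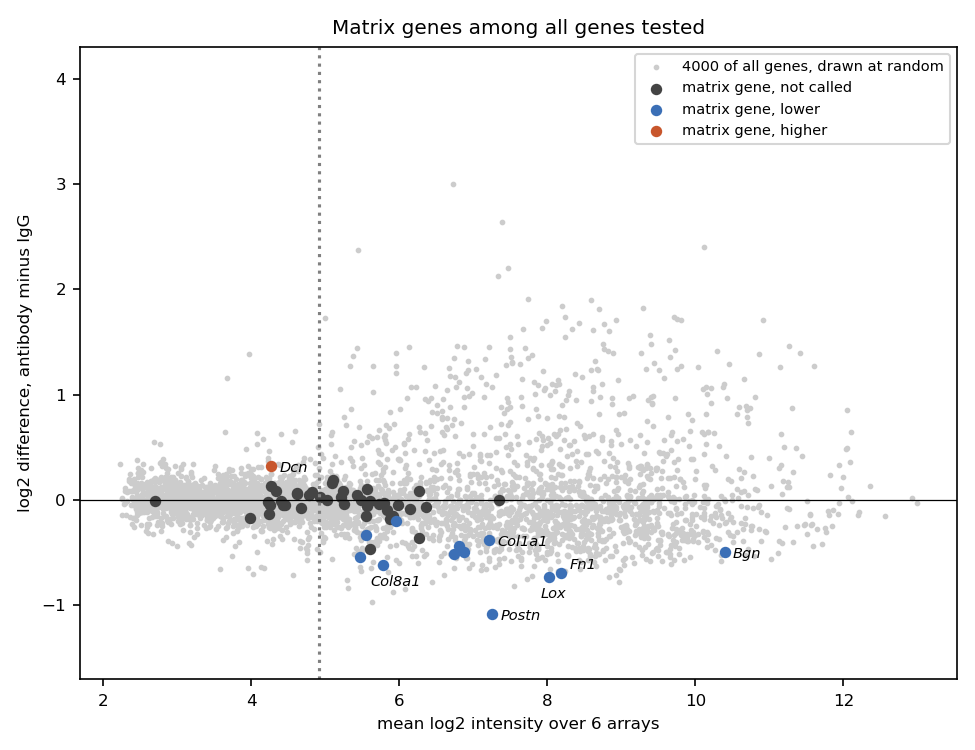
Mean log2 intensity over the 6 arrays (x axis) against the log2 difference, antibody minus IgG (y axis), for the 53 matrix genes over 4000 of the 22180 genes drawn at random in grey. The dotted line is the receptor guide at 4.92, and the labelled genes include Postn, which fell by 1.08 on the log2 scale, and Dcn, which lies left of the guide.

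Summed over the 53 genes, intensity was 3868 to 4056 on antibody arrays and 5010 to 5143 on IgG arrays. This sum of linear values is carried by the brightest genes, which are not collagens. Bgn, the brightest, averaged 10.15 on antibody arrays and 10.64 on IgG arrays on the log2 scale. The median log2 difference over the 53 genes was −0.04, so the sum does not describe a typical matrix gene. Markers of other cells differed between the same arrays, and their part in the matrix results was not tested. Of 20 stromal fibroblast markers, 3 were lower and 1 was higher, with a median difference of −0.05, beside 16.0% and 12.5% of all genes. Those lower were Acta2, smooth muscle actin (−1.20, SE 0.05), Tagln, an actin-binding smooth muscle protein (−0.81, SE 0.11), and the chemokine gene Cxcl12 (−0.33, SE 0.08). Kitl, the ligand of the receptor KIT, was higher (1.50, SE 0.12). The summed intensity of the 20 markers was 1483 to 1536 on antibody arrays and 2235 to 2346 on IgG arrays, and without Acta2 it was 947 to 984 and 996 to 1064. Only Acta2, which had the largest fall, was left out of the second sum. Kitl, which rose, stayed in it and offsets part of the fall of other markers. Of the 20 markers, 13 lay above the guide in at least 1 group. Among them were Prrx1, Cdh11, Vcam1, Pdpn, Osr1 and Twist1, none of them called and all named after their values were seen. The antibody arrays lay wholly below the IgG arrays for 6 of the 20 markers and wholly above for 1, beside 22.7% and 16.6% of all genes. The 6 included Vcam1, Pdpn and Pdgfrb, which were not called. The fibroblast markers Dpt, Lepr, Fap, Tcf21, Twist2, Meox1 and Meox2 lay below the guide in both groups. Pdgfra, the receptor that marks many fibroblasts, averaged 5.24 on antibody arrays and 5.21 on IgG arrays (adjusted p = 0.94), and Thy1 averaged 4.93 and 4.80 (adjusted p = 0.49). Pdgfrb, found on pericytes and fibroblasts, lay at 5.57 and 5.94 (adjusted p = 0.053). These 3 were picked as widely used markers after their values were seen. The 13 macrophage markers were all higher, with a median of 0.98 and a summed intensity of 37960 to 39600 against 21430 to 22310. Cd14 (1.74, SE 0.07), Aif1 (1.28, SE 0.07), Adgre1 (1.27, SE 0.06) and Fcgr1 (1.27, SE 0.05) changed most, and Csf1r itself, the antibody's target, rose by 1.12 (SE 0.05). Plasma cell markers were lower in 9 of 13 cases, with a median of −0.33 and a sum of 10960 to 11140 against 14410 to 15140. Eaf2 (−0.68, SE 0.04), Pou2af1 (−0.63, SE 0.05), Fkbp11 (−0.53, SE 0.05) and Cd79b (−0.42, SE 0.05) fell most. In these bulk samples, fewer cells of a type and less RNA per cell cannot be told apart.

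All 3 glycoproteins that bind collagen and cells were lower, and Postn had the largest fall of the 53 genes. Postn encodes periostin, a matricellular protein of fibroblasts that are remodelling tissue. Its log2 intensity was 6.71, 6.71 and 6.73 on the antibody arrays and 7.79, 7.79 and 7.79 on the IgG arrays. All antibody values lay about 1 log2 unit below all IgG values, with almost no spread inside a group. The values of IgG replicates 1 and 3 were exactly equal, so the spread of the IgG group may be understated. The difference was −1.08 (SE 0.04, 95% interval −1.18 to −0.98), so the IgG level was 2.11-fold that with the antibody (limma adjusted p = 1.3e-05).

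Fn1 encodes fibronectin, an adhesive glycoprotein that macrophages themselves secrete. It stood at 7.79, 7.79 and 7.93 with the antibody and at 8.50, 8.54 and 8.54 with IgG. The groups did not overlap, and antibody replicate 3 was the highest of its group. Fn1 fell by 0.70 on the log2 scale (SE 0.06, adjusted p = 0.00022). Sparc, which encodes a collagen-binding protein also called osteonectin, read 6.59, 6.49 and 6.80 against 7.13, 7.13 and 7.10. Again antibody replicate 3 was the highest of its group and lay below every IgG array. Sparc fell by 0.49 (SE 0.08, adjusted p = 0.0048).

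Lox, the gene of lysyl oxidase, which starts the crosslinks between collagen molecules, differed by a similar amount. The antibody arrays read 7.53, 7.59 and 7.86, and the IgG arrays read 8.35, 8.40 and 8.42. All antibody arrays lay below all IgG arrays, and antibody replicate 3 was the nearest to them. Lox fell by 0.73 (SE 0.09, adjusted p = 0.0013), a 1.66-fold higher level with IgG. Loxl1, a related oxidase that acts mainly on elastin, read 5.67, 5.87 and 5.82 against 6.06, 5.84 and 5.73, and its groups overlapped (difference −0.09, 95% interval −0.33 to 0.15, adjusted p = 0.58). The log2 ratio of Lox to Loxl1 within an array, whose level depends on the probes, differed by −0.64 between the groups (antibody minus IgG). An exact two-sided permutation test over the 6 arrays gave p = 0.1, the smallest that 3 against 3 allows (0.23 after Benjamini-Hochberg adjustment over 7 such ratios, of which those with a gene below the guide, Col8a1 to Col8a2 and Bgn to Dcn, are not given). The elastin gene Eln read 4.82, 4.81 and 4.78 against 4.65, 4.81 and 4.81, below the guide in both groups and not called (0.04, 95% interval −0.10 to 0.19).

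The 3 small leucine-rich proteoglycans differed from each other. Bgn, the gene of biglycan, which binds collagen and also acts on Toll-like receptors, read 10.10, 10.09 and 10.26 with the antibody and 10.60, 10.68 and 10.65 with IgG. Its groups did not overlap, and it fell by 0.49 (SE 0.06, adjusted p = 0.0014). The probe set of Bgn with the lower signal gave a difference of −0.35 (SE 0.08, adjusted p = 0.016 over all probe sets). Dcn, the gene of decorin, a proteoglycan that regulates fibril width and is abundant in fibroblasts, went the other way, at 4.46, 4.46 and 4.37 against 4.09, 4.09 and 4.14. Every antibody value lay above every IgG value, but all 6 lay below the guide. It was called higher by 0.32 (SE 0.05, adjusted p = 0.0033). Lum, for lumican, read 2.66, 2.71 and 2.72 against 2.71 on all 3 IgG arrays, far below the guide (adjusted p = 0.86). Dcn and Lum thus lay below the receptor guide, while Bgn lay far above it.

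**Figure D2:**
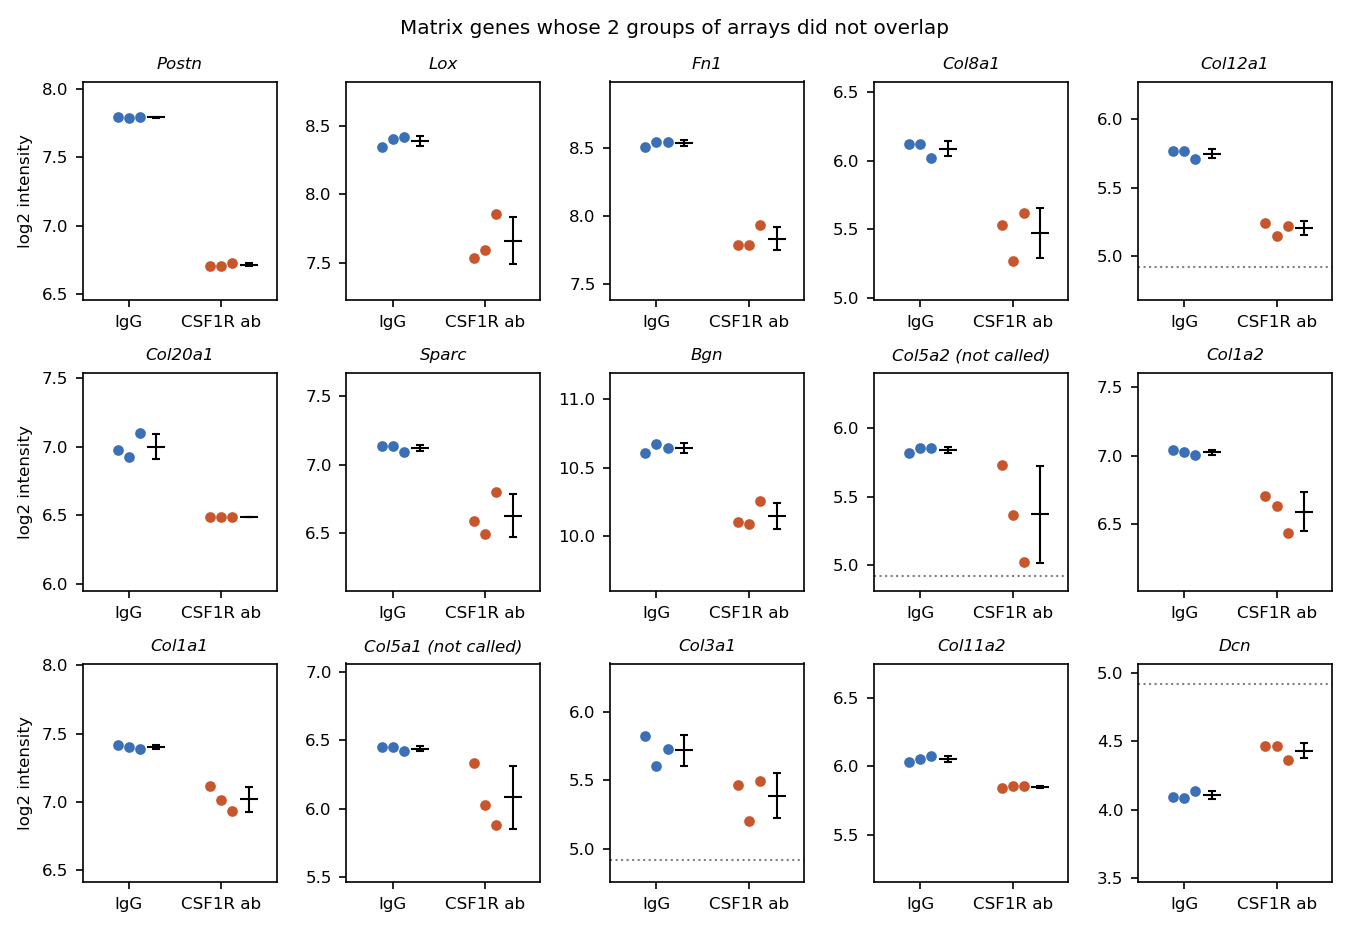
Log2 intensity (y axes, each spanning 1.6 log2 units) of the 15 matrix genes whose 2 groups of 3 arrays did not overlap. Points are arrays, replicates 1 to 3 from left to right, bars are the mean ± SD of 3 arrays, and the dotted line is the receptor guide at 4.92, where it falls in the panel. In 14 panels the antibody arrays lie below the IgG arrays, and in the panel of Dcn they lie above, under the guide.

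Fibrillar collagens form the striated fibres of bone, skin and tendon. Of 11 measured, 4 were lower and 0 higher, or 36.4% lower, beside 16.0% of all genes. The median difference of the 11 was −0.20. The calls of Col1a2, Col3a1 and Col11a2 were each lost in some alternative analyses, so this share rests on unstable calls. Col1a1, the major chain of collagen I, read 7.12, 7.02 and 6.93 with the antibody and 7.42, 7.40 and 7.39 with IgG. The IgG arrays were tightly grouped, and all antibody arrays lay below them. Col1a1 fell by 0.38 (SE 0.06, adjusted p = 0.0033).

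Col1a2, the partner chain of collagen I, read 6.71, 6.63 and 6.44 against 7.04, 7.03 and 7.00. It fell by 0.43 (SE 0.08, adjusted p = 0.0059), with no overlap between the groups. The second probe set of Col1a2, below the guide in both groups, gave −0.24 (SE 0.20). With the mean of the 2 probe sets the call was lost (−0.34, adjusted p = 0.094). The log2 ratio of Col1a1 to Col1a2 differed by 0.05 between the groups (exact permutation p = 0.2, adjusted 0.23).

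Col3a1, whose collagen III is laid down with collagen I in soft tissue and early repair, read 5.47, 5.20 and 5.50 against 5.83, 5.60 and 5.73. The groups did not overlap, but the highest antibody array lay close to the lowest IgG array. Col3a1 fell by 0.33 (SE 0.10) and only just passed the test (adjusted p = 0.049). The call was lost when any single array was left out, with adjusted p from 0.058 without antibody replicate 3 or IgG replicate 2 to 0.15 without IgG replicate 1. The other values were 0.078 without antibody replicate 1, 0.099 without antibody replicate 2 and 0.13 without IgG replicate 3. It was also lost with each array centred on its median (0.075) and with cyclic loess (0.079).

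Collagen V nucleates fibrils of collagen I. Of its 3 chains, Col5a1 and Col5a2 did not pass but their groups lay apart, while the groups of Col5a3 overlapped. Col5a1 read 6.34, 6.03 and 5.88 against 6.45, 6.45 and 6.42, a difference of −0.36 (95% interval −0.63 to −0.09, adjusted p = 0.059). Col5a2 read 5.73, 5.37 and 5.02 against 5.82, 5.85 and 5.85, a difference of −0.47 (−0.87 to −0.07, adjusted p = 0.086). In both genes antibody replicate 1 lay close to the IgG arrays. Without that array both passed, Col5a1 with −0.48 (adjusted p = 0.0055) and Col5a2 with −0.65 (adjusted p = 0.012). They passed as well when the test was limited to genes with a mean above the median gene (adjusted p = 0.020 and 0.033). The log2 ratio of the 2 chains differed by 0.11 between the groups (exact permutation p = 0.2, adjusted 0.23). The second probe set of Col5a1 gave −0.10 (SE 0.05, adjusted p = 0.26 over all probe sets). Col5a2 and Col3a1 are neighbours in the RefSeq gene order of GRCm38.p6.

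Col11a2, a chain of the cartilage collagen XI, read 5.84, 5.85 and 5.85 against 6.03, 6.05 and 6.07. The groups lay apart, but the difference was small, at −0.20 (SE 0.04, adjusted p = 0.012). The call was lost with centred arrays (−0.16, adjusted p = 0.062) and with cyclic loess (−0.15, adjusted p = 0.053). Col2a1, the main cartilage collagen, lay at 5.70 and 5.74 (adjusted p = 0.75). Col5a3 differed by −0.09 (95% interval −0.33 to 0.16), Col27a1 by −0.05 (−0.38 to 0.27) and Col24a1 by 0.03 (−0.13 to 0.18). Col11a1 lay below the guide in both groups.

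Promoter sequence is shown for 5 of the lower genes with an entry in the RefSeq promoter table (GRCm38.p6), to let a reader see the letters that the motif counts rest on. The 5 were chosen from 8 after the values and motifs were seen, so they do not stand for the rest. Each run is the 200 bases before an annotated start, 5′ to 3′, in lower case. Capitals mark any match to 6 motifs: a TATA box (TATAAA, on the gene strand), a CCAAT box (CCAAT, both strands), a SMAD element (CAGAC, both strands), a TEAD element (GGAATG, both strands), an AP-1 site (TGANTCA, both strands) and the SRF CArG box. A match is a description of letters and not a bound site. Postn has 2 starts in the table, and the downstream window is shown.
Postn, chr3:54360907-54361106, plus strand: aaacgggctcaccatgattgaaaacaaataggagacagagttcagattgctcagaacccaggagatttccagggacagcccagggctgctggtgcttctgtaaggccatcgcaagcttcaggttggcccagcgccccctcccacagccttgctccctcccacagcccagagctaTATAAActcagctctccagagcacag
Sparc, chr11:55420081-55420280, minus strand: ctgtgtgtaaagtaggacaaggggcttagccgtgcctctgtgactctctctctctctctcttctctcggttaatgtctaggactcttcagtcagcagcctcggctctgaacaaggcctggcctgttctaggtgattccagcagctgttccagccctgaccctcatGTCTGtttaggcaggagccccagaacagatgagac
Col1a2, chr6:4505418-4505617, plus strand: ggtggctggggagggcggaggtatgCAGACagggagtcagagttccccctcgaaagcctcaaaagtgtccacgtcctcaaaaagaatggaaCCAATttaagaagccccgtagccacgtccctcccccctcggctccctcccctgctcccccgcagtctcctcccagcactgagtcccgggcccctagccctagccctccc
Col3a1, chr1:45311338-45311537, plus strand: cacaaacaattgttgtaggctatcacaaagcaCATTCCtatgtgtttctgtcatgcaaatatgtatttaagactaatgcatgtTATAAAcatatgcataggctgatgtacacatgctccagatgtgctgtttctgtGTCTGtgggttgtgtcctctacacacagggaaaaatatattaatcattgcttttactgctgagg
Col8a1, chr16:57754738-57754937, minus strand: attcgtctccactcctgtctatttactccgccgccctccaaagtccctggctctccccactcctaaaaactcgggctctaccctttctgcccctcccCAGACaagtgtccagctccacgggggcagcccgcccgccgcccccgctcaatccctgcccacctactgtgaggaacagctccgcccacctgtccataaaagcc
In the Postn window, TATAAA lies at positions -26 to -21, counted back from -1, the base before the start. The upstream window of Postn, which is not shown, holds the SMAD letters at -191 to -187. CAGAC or its reverse complement GTCTG lies at positions -35 to -31 in Sparc, -175 to -171 in Col1a2, -64 to -60 in Col3a1 and -103 to -99 in Col8a1. Col1a2 also holds CCAAT at -109 to -105, and Col3a1 holds TATAAA at -117 to -112 and the TEAD letters at -168 to -163. The window of Bgn, also among the lower genes, holds 0 of the 6 motifs. The 6 motifs can share bases in principle, and no overlap was removed.

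Of the 53 genes, 38 had a promoter in the table, 8 of them among the 12 lower genes. The 9 windows of those 8 genes held the SMAD letters in 6 cases (66.7%), beside 9 of 33 windows (27.3%) of matrix genes that were not called and 35.5% of all 32851 windows of the same length. TATAAA was present in 3 of 9 windows, 2 of 33 and 6.27% of all. For the TEAD letters the figures were 2 of 9, 2 of 33 and 10.1%, and for CCAAT 1 of 9, 9 of 33 and 29.3%. AP-1 letters were in 0 of 9 windows and 5.48% of all, and the CArG box in 0 of 9 and 1.18%. The 9 windows are few and the motifs short, so these shares are descriptions. The median GC content was 55.5% in the 9 windows, 60.5% in the 33 and 53.0% in all.

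Fibril-associated collagens lie on the surface of fibrils. Of 9 measured, 2 were lower, or 22.2%, near the 16.0% of all genes. Col12a1, whose collagen XII links fibrils in tendon and muscle, read 5.24, 5.15 and 5.22 with the antibody and 5.77, 5.77 and 5.71 with IgG. The groups were well apart, and it fell by 0.54 (SE 0.05, adjusted p = 0.00035). Col20a1, a little-studied member of this class, read 6.49 on all 3 antibody arrays and 6.98, 6.92 and 7.10 on the IgG arrays, and fell by 0.51 (SE 0.06, adjusted p = 0.00089). The 3 antibody values of Col20a1 were exactly equal, so its spread in that group is understated. Equal values within a group occurred in 21 of the 53 genes, and their share over all genes was not counted.

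The other fibril-associated chains were not called. Col9a2, a chain of cartilage collagen IX, lay at 7.35 in both groups (difference −0.00, 95% interval −0.17 to 0.16), and Col9a3 lay at 5.48 and 5.62 (−0.15, −0.33 to 0.04). Col16a1 differed by −0.01 (−0.12 to 0.10) and Col22a1 by 0.03 (−0.16 to 0.21). Col9a1, Col14a1 and Col19a1 lay below the guide in both groups.

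Col8a1, a short-chain collagen of vessel walls and the eye that forms networks, read 5.53, 5.27 and 5.62 with the antibody and 6.12, 6.12 and 6.02 with IgG. No antibody array reached the IgG range. It fell by 0.62 (SE 0.10, adjusted p = 0.0034), the largest difference among the 44 collagens. Its partner chain Col8a2 lay below the guide in both groups and was not called (0.13, 95% interval −0.12 to 0.39). In the same class, Col7a1 (anchoring fibrils of skin), Col15a1 and Col18a1 (basement membrane zones) differed by −0.03 (−0.29 to 0.23), −0.00 (−0.15 to 0.14) and 0.16 (−0.05 to 0.38), none of them called. Col10a1, a growth plate collagen, lay below the guide in both groups. It passed in 1 alternative, without antibody replicate 1 (−0.29, adjusted p = 0.030).

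Collagen IV, the network of basement membranes, had 0 of 6 chains called. Col4a1 read 5.80, 5.98 and 5.57 with the antibody and 5.96, 5.98 and 5.96 with IgG, with overlap (−0.18, 95% interval −0.43 to 0.06, adjusted p = 0.26). Col4a2, its neighbour and partner chain, differed by 0.05 (−0.09 to 0.18). The log2 ratio of Col4a1 to Col4a2 differed by −0.23 between the groups (exact permutation p = 0.2, adjusted 0.23). Col4a3, Col4a4, Col4a5 and Col4a6, chains of kidney and other specialised basement membranes, lay below the guide in both groups.

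Collagen VI, which forms beaded filaments around cells, also had 0 of 6 chains called. Col6a1 read 6.16, 6.43 and 6.39 against 6.37, 6.37 and 6.45 (−0.07, 95% interval −0.26 to 0.13). Col6a2 differed by −0.04 (−0.21 to 0.12), Col6a3 by 0.11 (−0.16 to 0.37) and Col6a6 by 0.09 (−0.13 to 0.31). Col6a4 and Col6a5 lay below the guide in both groups. These intervals leave room for changes in either direction, up to 0.37 for Col6a3, so they do not show that collagen VI was the same in both groups. The log2 ratio of Col6a1 to Col6a2 differed by −0.02 between the groups (exact permutation p = 0.8, adjusted 0.80).

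Transmembrane and other collagens, a mixed class of cell-surface and poorly known chains, had 0 of 6 called. Col23a1 differed by 0.09 (−0.18 to 0.36), Col26a1 by −0.15 (−0.39 to 0.09), Col17a1, of skin attachment, by −0.03 (−0.18 to 0.12) and Col13a1 by −0.00 (−0.27 to 0.26). Col25a1, known from neurons, averaged 5.20 on antibody arrays and 5.01 on IgG arrays (0.19, −0.07 to 0.45, adjusted p = 0.28). It passed without IgG replicate 3 (0.31, adjusted p = 0.033). Col28a1 lay below the guide in both groups. Over the 37 collagens not called, differences ran from −0.47 to 0.19, with a median of −0.02, and 24 of them lay above the guide in at least 1 group.

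**Figure D3:**
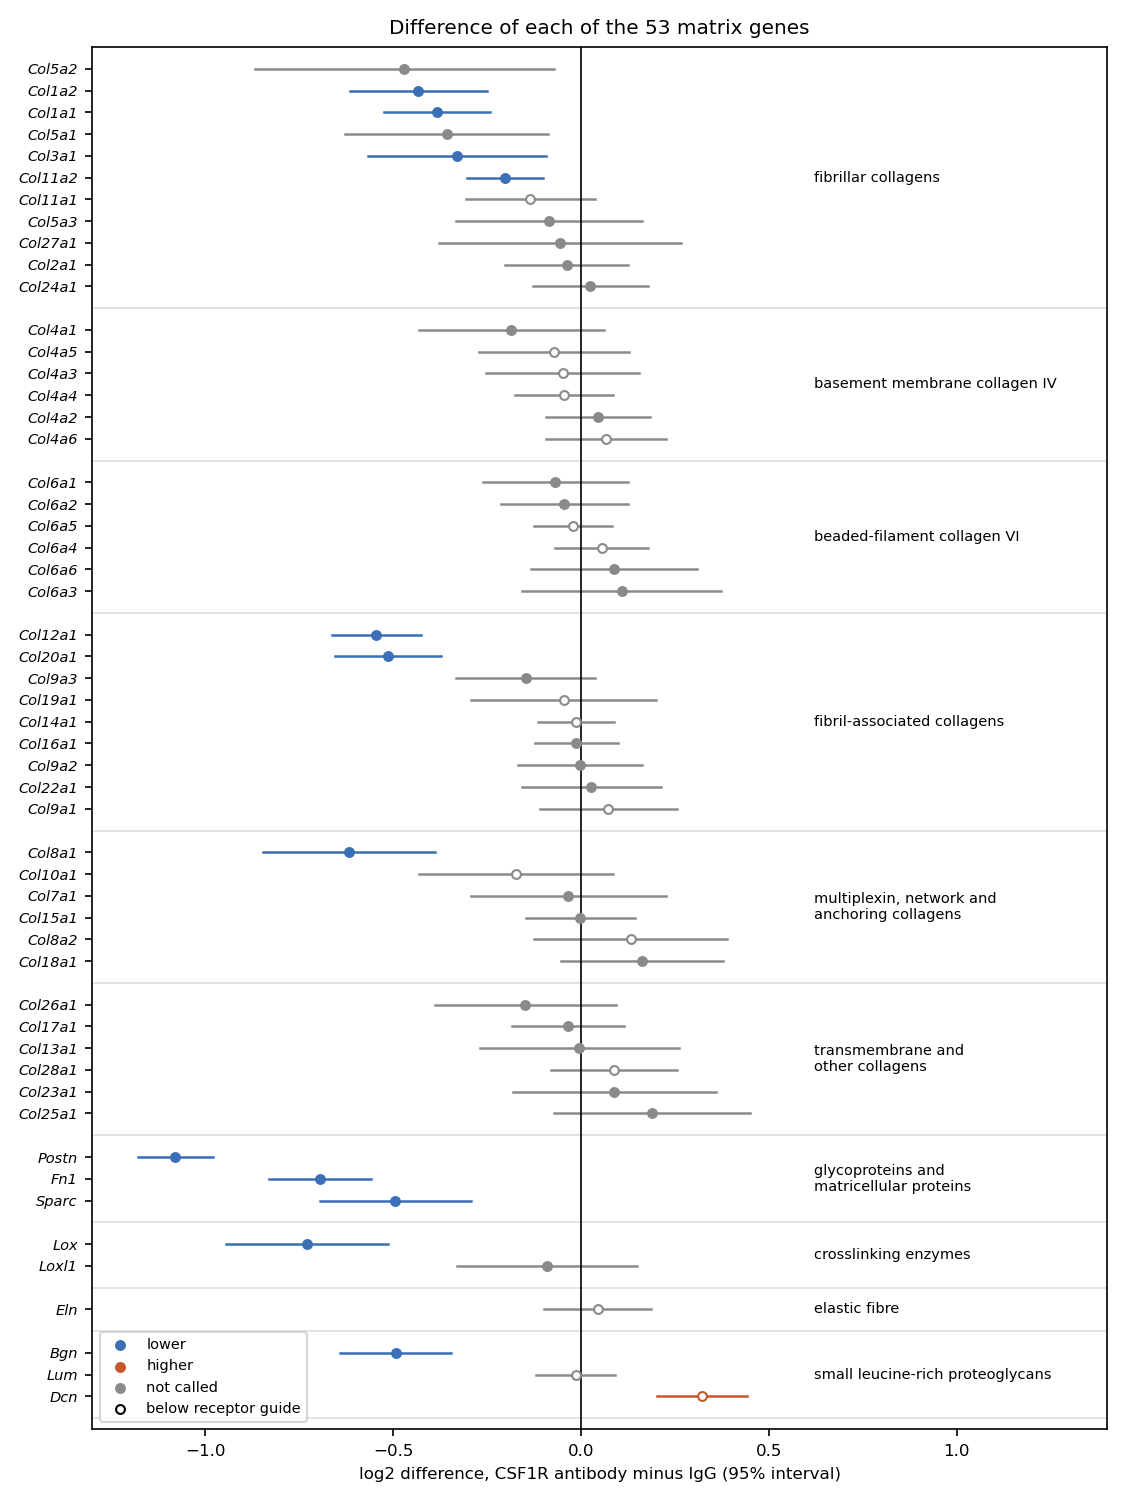
Log2 difference, antibody minus IgG (x axis), of each of the 53 matrix genes by class, with limma's 95% interval. Blue marks lower, orange higher and grey not called, and open points lay below the receptor guide in both groups. The 12 lower genes lie in the fibrillar, fibril-associated, network, glycoprotein, crosslinking and proteoglycan classes, and 0 chains of collagen IV or VI were called.

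Within the 12 lower genes the IgG arrays were the tighter group. The SD was larger on the antibody arrays in 10 of the 12, and in 36 of all 53 genes. The share over all genes was not counted, so this is not shown to be particular to matrix genes. No single antibody array was lowest throughout. Replicate 2 was the lowest of its group for 7 genes, replicate 1 for 3 and replicate 3 for 2, with a tie counted for the first array. Col1a1, Col1a2, Col5a1 and Col5a2 had the same order of antibody arrays, with replicate 1 highest and replicate 3 lowest. Postn, Fn1, Sparc, Lox, Col3a1, Col8a1 and Bgn had replicate 3 highest.

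Of 28 measured genes that make and process collagen, 5 were lower and 3 higher, with a median of −0.05. These shares, 17.9% and 10.7%, were near the 16.0% and 12.5% of all genes. Serpinh1, a collagen chaperone, was lower (−0.44, SE 0.11). The other lower genes, named after their values were seen, were P4ha3 (−0.36, SE 0.06) and P3h1 (−0.29, SE 0.06), which encode prolyl hydroxylases, Fkbp14 (−0.27, SE 0.05) and Sec23a (−0.23, SE 0.05). Plod1, a lysyl hydroxylase, was higher by 1.02 (SE 0.06), P3h3 by 0.69 (SE 0.10) and Loxl3, a lysyl oxidase, by 0.41 (SE 0.06). Plasma cell markers had a median of −0.33 on the same arrays, and their part in these results was not tested.

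Laminins and other basement membrane genes had 3 of 14 lower (21.4%, near the 16.0% of all genes) and 0 higher, with a median of −0.15. Lamb1 (−0.39, SE 0.05) and Lamc1 (−0.33, SE 0.06), chains of the most widespread laminins, and Hspg2, the gene of perlecan (−0.26, SE 0.08), were lower. Elastic fibre genes outside the rule had 3 higher (23.1%) and 2 lower (15.4%) of 13, beside 12.5% and 16.0% of all genes. Ltbp3, which holds latent TGF-beta (0.83, SE 0.11), and the elastin-associated gene Emilin1 (0.61, SE 0.11) and Fbln5 (0.49, SE 0.11) were higher, and Fbln2 (−0.33, SE 0.06) and Ltbp2 (−0.24, SE 0.07) were lower, Ltbp2 being named after its values were seen. Among 9 other matrix proteoglycans, 2 were lower (22.2%) and 1 was higher (11.1%), near the shares over all genes. Ogn, the gene of osteoglycin (−0.94, SE 0.14), and Fmod, the gene of fibromodulin (−0.58, SE 0.06), were lower, and Vcan, the gene of versican, was higher (0.30, SE 0.05).

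Of 15 matricellular genes outside the rule, 5 were lower (33.3%, beside 16.0% of all genes) and 2 higher (13.3%, beside 12.5%). Ccn2, a growth factor-like protein of the matrix, was lower by −1.09 (SE 0.08), its relative Ccn1 by −0.88 (SE 0.06) and Tnc, the gene of tenascin C, by −0.84 (SE 0.10). Thbs1, the gene of thrombospondin 1, which macrophages secrete, was higher by 1.23 (SE 0.06), while Thbs2 was lower (−0.71, SE 0.06). Tgfbi, whose protein binds collagen, was higher by 0.84 (SE 0.05), and Smoc1 was lower (−0.43, SE 0.06). Thbs2, Tgfbi and Smoc1 were named after their values were seen.

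Receptors for collagen and fibronectin had 7 higher (38.9%, beside 12.5% of all genes) and 4 lower (22.2%, beside 16.0%) of 18. Sdc4, a heparan sulfate proteoglycan that binds fibronectin (1.69, SE 0.07), Mrc1, the mannose receptor, which takes up collagen (1.21, SE 0.08), Lair1, an inhibitory collagen receptor of leukocytes (0.89, SE 0.05), and the integrin gene Itgb5 (0.64, SE 0.04) were higher. The other higher genes were the integrin genes Itga1 (0.47, SE 0.08), Itgb1 (0.31, SE 0.08) and Itgb3 (0.23, SE 0.05). The 4 that were lower were Itgav (−0.43, SE 0.05), Cd44 (−0.38, SE 0.07), Ddr1 (−0.24, SE 0.05) and Itga5, part of the fibronectin receptor (−0.19, SE 0.05). These 4 and the 3 integrin genes before them were named after their values were seen. The macrophage markers had a median of 0.98 on the same arrays, and their part in the receptor results was not tested.

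Markers of bone and vessel cells, which also make matrix, were mixed. Of 11 osteoblast and chondrocyte markers, 8 lay below the guide in both groups, among them Sp7, Ibsp and Bglap, which mark osteoblasts and were named after their values were seen, and 1 was lower (9.09%, beside 16.0% of all genes), Alpl, alkaline phosphatase (−0.48, SE 0.05), an enzyme that many other cells also make. Alpl was well above the guide, at 10.03 with the antibody and 10.51 with IgG. The summed intensity of the 11 markers was 1231 to 1303 with the antibody and 1623 to 1760 with IgG. Alpl was by far the brightest of them and made up most of this sum, so the sum does not describe the other markers. Of 12 endothelial markers, 6 lay above the guide in at least 1 group, 6 lay below it in both, and 3 of the 12 were higher, beside 12.5% of all genes: Eng (1.41, SE 0.06), Kdr (1.34, SE 0.06) and Vwf (1.00, SE 0.05). The other 9 were not called, among them Pecam1 (limma adjusted p = 0.31) and Cdh5 (limma adjusted p = 0.46), named after their values were seen. The summed intensity of the 12 markers was 1338 to 1381 with the antibody and 655 to 707 with IgG. Eng and Kdr were the brightest of them and made up most of this sum, so the sum does not describe the other markers. The part of these cells in the matrix results was not tested.

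**Figure D4:**
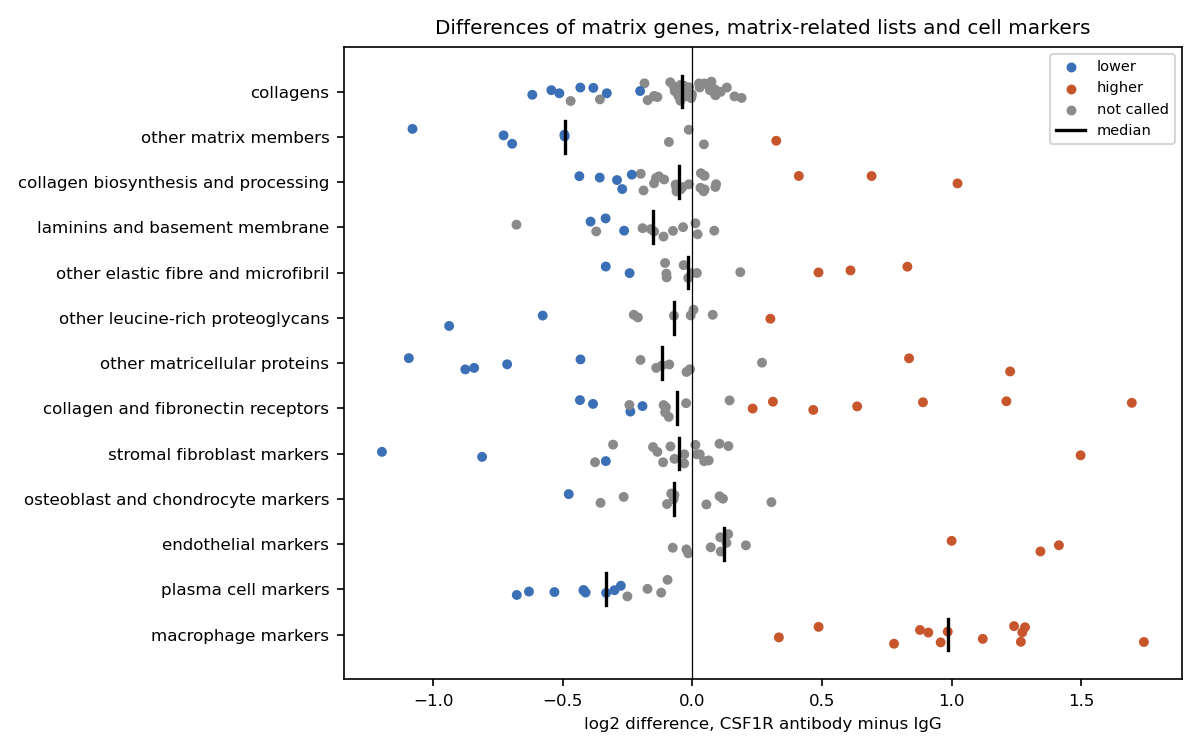
Log2 difference, antibody minus IgG (x axis), of each gene in the collagens, the other matrix genes of the rule, 6 matrix-related lists and 5 lists of cell markers. Points are genes, coloured by call, with a random vertical offset, and black bars are medians. The macrophage markers lie wholly to the right of 0 and the plasma cell markers wholly to the left, while the collagens have a median of −0.04 and 7 of 44 are lower.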

How the data were processed

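Affymetrix Mouse Gene 2.0 ST arrays gave the data, 3 for the CSF1R antibody and 3 for IgG. The authors deposited 1 linear intensity per probe set and array, and RMA and limma are named, without role or version, in the submitters' processing notes. RMA as usually run evens out the distribution of values between arrays, so a shift of most genes would be hidden. The genome build is not given in the sources used here. Median log2 intensity was 4.88 to 4.95, and correlations between arrays were 0.992 to 0.993 within groups and 0.984 to 0.985 between them. The number of arrays limits the precision.

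Intensities were taken as log2. A platform annotation, which can be old, gave 1 gene symbol to 23521 of 41345 probe sets, several to 1814 and none to 16010. For each of 22180 genes, the brightest probe set (by its mean) annotated to that symbol alone was kept, with no filter on low signal. The functions lmFit and eBayes of limma 3.58.1 (R 4.3.3) compared the groups across all genes, with Benjamini-Hochberg adjustment and a threshold of 0.05. Intervals are limma's 95% intervals, and SE is its moderated standard error. The fit was also run on simulated arrays with independent normal noise and known differences in a small part of the genes. Such arrays are simpler than the real ones, so this run does not give the error rate of the calls reported here. Figures were drawn with matplotlib 3.10.9 in Python 3.11.15.

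The matrix genes and lists were chosen with earlier results of these data known. Named were the 9 matrix genes that are not collagens and every collagen that was called or lay above the receptor guide. From each other list up to 4 called genes with the largest change were named. Alternatives were an intensity trend, centred arrays, cyclic loess, filters on signal, the mean of probe sets, the replicate number as a block, a threshold of 0.01 and leaving out each array. At most 6.88% of values were identical between 2 arrays.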

Additional observations from a re-analysis of the deposited data

How the results depend on the processing

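Of the 13 called matrix genes, 10 kept their call and direction in each alternative in which they were tested, a threshold of 0.01 aside, and the calls of Col3a1, Col1a2 and Col11a2 were each lost in at least 1. The 10 were Postn, Fn1, Sparc, Lox, Bgn, Dcn, Col1a1, Col8a1, Col12a1 and Col20a1, and Dcn had too little signal to be tested with the 2 stricter filters. Matrix genes called lower numbered 10 to 14 over the alternatives, with 11 under the replicate number as a block. Those called higher were 0 when the test was limited to genes above the median signal or above the receptor guide (the second chosen after seeing the data), and 1 to 2 when an array was left out, where the 2 came without IgG replicate 3. The median difference over the matrix genes was 0.0009 with each array centred on its median, where the median over all genes was 0.02 in place of −0.02, and −0.18 when only genes above the median signal entered, which leaves fewer matrix genes. Stromal markers called lower were 5 in place of 3 with genes above the median signal or above the receptor guide, where fewer genes were tested. Among uncalled matrix genes, 4 passed in at least 1 alternative (Col5a1, Col5a2, Col10a1 and Col25a1). Differences of uncalled genes changed sign without a call in 51 results. Deviations from group means correlated at 0.03, −0.05 and 0.003 between arrays of the same replicate number. Between arrays of unlike number the correlations ran from −0.07 to 0.07. With 3 arrays in each group, these values cannot decide whether equal numbers mark the same mouse. With that block the call of Col11a2 was lost (adjusted p = 0.056), and over all genes 2569 were higher and 2980 lower. For the 16 matrix genes below the receptor guide, signal over background limits what could be seen.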
